A study of Homo sapiens with 20 samples.

Results

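The HOX gene clusters are 4 runs of neighbouring homeobox genes, HOXA, HOXB, HOXC and HOXD, and were taken as 38 genes: 10 of HOXA, 10 of HOXB, 9 of HOXC and 9 of HOXD. Their chromatin was read from the H3K27ac peaks that overlapped 1 window per cluster on hg19, chr7:27100001-27300000 for HOXA, chr17:46580001-46830000 for HOXB, chr12:54300001-54470000 for HOXC and chr2:176920001-177080000 for HOXD. The windows held 481 of the 458811 peaks in 4 lists, with 123, 106, 112 and 140 peaks in GFP replicates 1 and 2 and SMARCB1 replicates 1 and 2. Flanks of 300 kb on each side of the windows held another 1031. The windows were set by position alone and not by any measured value.

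The study used G401, a human rhabdoid tumour cell line labelled as lacking both copies of SMARCB1, a core member of SWI/SNF complexes, which remodel chromatin. In the control libraries doxycycline induced GFP and in the others SMARCB1, so all of them share the genotype and the induction with doxycycline. Chromatin was cut enzymatically before immunoprecipitation, and the series holds 20 samples in 10 groups of 2. The 2 GFP and 2 SMARCB1 libraries of H3K27ac, an acetylation of histone H3 at active promoters and enhancers, were compared here, and the remaining samples, of other antibodies and input, were not analysed here. The labels name no promoter for the transgenes, no clone, no dose and no time of induction. They do not say that replicates came from separate cultures, so p-values measure only the spread between these libraries. The comparison asks how H3K27ac at the HOX clusters differs once the missing subunit is made.

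HOX genes encode DNA-binding transcription factors that give cells their position along the body axis. Within a cluster the genes lie in the order in which they are used from head to tail, low-numbered members towards the head and high-numbered members towards the tail. Cells keep that state through development: Polycomb complexes, which place H3K27me3, hold silent members shut, while Trithorax proteins and SWI/SNF complexes are known to oppose Polycomb at active ones. Acetylation and trimethylation cannot sit on the same lysine, so H3K27ac over a HOX cluster is read as a sign of its open part.

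All 38 members were found in RefSeq's GRCh38.p14 gene table, which gives their order apart from that among HOXC4, HOXC5 and HOXC6. From low to high coordinate HOXA runs from HOXA2 to HOXA13 and HOXB from HOXB1 to HOXB13, both on the minus strand. HOXC runs from HOXC13 down to HOXC8, followed by HOXC4, HOXC5 and HOXC6. HOXD runs from HOXD13 down to HOXD1, and both clusters are on the plus strand. HOXC4 and HOXC5 share a promoter entry, so gene starts do not resolve the order among HOXC4, HOXC5 and HOXC6. The peaks are on hg19 and no gene model of that build was used here, so no peak is assigned to a member gene. For the same reason the labelled cell type was not checked against marker genes.

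Promoters of the outermost members with an entry are shown for HOXA, where peaks covered 34.1 to 37.7% of the window in the 4 libraries, and for HOXD, where they covered 0.536 and 0.136% of it in the GFP libraries. Each is the 250 bases before the RefSeq start in GRCh38.p14, 5′ to 3′ on the gene's strand, with CG dinucleotides, the sites of DNA methylation, in capitals. HOXA2, which patterns the hindbrain, is at chr7:27102684-27102933 on the minus strand, and HOXA13, needed for the digits and the urogenital tract, at chr7:27200092-27200341 on the minus strand. HOXD13, needed for the digits, is at chr2:176092471-176092720 on the plus strand, and HOXD1, at the opposite end of its cluster, at chr2:176188418-176188667 on the plus strand.
HOXA2: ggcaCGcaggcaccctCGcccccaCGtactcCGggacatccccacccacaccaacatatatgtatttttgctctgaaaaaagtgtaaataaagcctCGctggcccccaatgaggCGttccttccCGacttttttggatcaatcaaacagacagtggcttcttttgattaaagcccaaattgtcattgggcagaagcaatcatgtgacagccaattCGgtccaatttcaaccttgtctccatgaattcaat
HOXA13: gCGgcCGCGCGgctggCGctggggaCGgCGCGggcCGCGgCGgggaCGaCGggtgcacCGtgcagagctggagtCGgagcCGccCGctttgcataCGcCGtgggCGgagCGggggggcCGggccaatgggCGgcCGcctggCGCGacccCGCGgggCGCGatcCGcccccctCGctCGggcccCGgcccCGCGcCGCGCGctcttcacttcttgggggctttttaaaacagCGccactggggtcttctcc
HOXD13: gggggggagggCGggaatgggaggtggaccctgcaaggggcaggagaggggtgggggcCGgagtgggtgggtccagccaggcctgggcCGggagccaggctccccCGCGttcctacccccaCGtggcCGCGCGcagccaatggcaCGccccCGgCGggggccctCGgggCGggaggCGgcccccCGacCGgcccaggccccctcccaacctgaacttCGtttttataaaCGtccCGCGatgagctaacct
HOXD1: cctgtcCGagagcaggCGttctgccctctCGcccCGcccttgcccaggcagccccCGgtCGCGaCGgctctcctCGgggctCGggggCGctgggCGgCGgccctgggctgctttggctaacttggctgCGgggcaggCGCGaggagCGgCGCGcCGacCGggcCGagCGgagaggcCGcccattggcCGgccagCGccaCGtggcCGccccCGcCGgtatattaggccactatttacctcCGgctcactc

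These stretches held 8 CG dinucleotides in HOXA2, 40 in HOXA13, 21 in HOXD13 and 31 in HOXD1. A promoter entry existed for 20 of the 38 members, 9 of HOXA, 1 of HOXB, 2 of HOXC and 8 of HOXD. Their counts ran from 4 to 40 with a median of 20.5, beside a median of 10 over 27305 RefSeq promoters of the same length. The median was 20 over the HOXA entries and 22 over the HOXD entries; no test was made of these counts. HOXC4 and HOXC5 share 1 promoter entry with the same bases.

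The libraries were not of equal depth. The background expected at a summit, recovered from each peak's deposited fold and p-value, was 1.82 and 3.74 fragments in the GFP libraries and 4.09 and 3.89 in the SMARCB1 libraries, and the lowest summits at that level had 7, 11, 13 and 11 fragments. The fragments of SMARCB1 replicate 1 had been scaled by 0.855, and its 13 is the count before scaling. The lists held 98251 and 79555 peaks against 145533 and 135472, and covered 2.92 and 2.70% of the genome against 4.005 and 3.31%. More of the genome was thus under peaks in the SMARCB1 libraries, and the part of depth in the differences below was not tested except where a value is given. Two-sided exact permutation tests of 2 libraries against 2 have a smallest p of 0.333.

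The 4 clusters started from different states in the GFP libraries, 3 broadly acetylated and HOXD nearly bare. HOXC was the most acetylated, with peaks over 65.2 and 65.3% of its window, followed by HOXB with 44.4 and 42.7% and HOXA with 36.8 and 37.7%. HOXD had peaks over 0.536 and 0.136% of its window. These ranks did not overlap between neighbours in either group. Among 17767 stretches of the genome of the HOXC window's length, cut end to end, 28 were covered at least as much in GFP replicate 1 and 32 in GFP replicate 2, and the median stretch had no peak. For the HOXD window 6163 and 6539 of 18884 stretches were covered at least as much in the GFP libraries. The HOXD window was thus among the many stretches with few or no peaks.

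**Figure D1:**
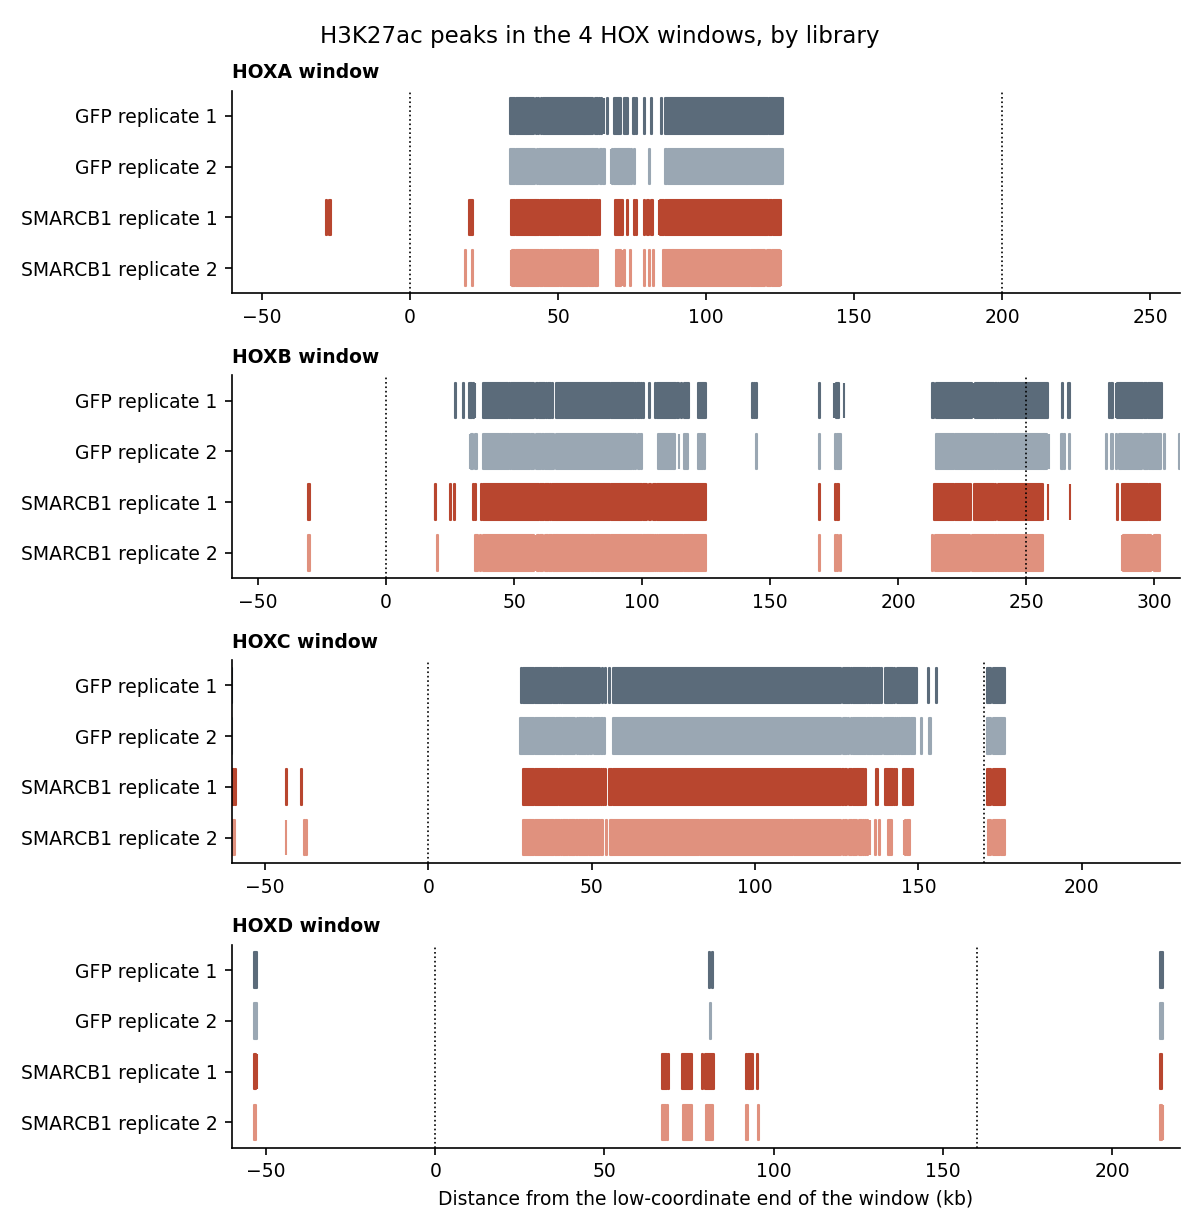
H3K27ac peaks of each library drawn as blocks along the 4 windows, in kb from the window's low-coordinate end, with 60 kb of flank on each side and dotted lines at the window's edges. HOXA, HOXB and HOXC hold long runs of peaks in all 4 libraries, whereas HOXD holds 3 and 1 peaks in the GFP libraries and 10 and 9 in the SMARCB1 libraries.

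With SMARCB1, the HOXD window went from nearly bare to partly covered, while the other 3 stayed broadly covered. HOXD was covered over 5.80 and 4.32% in the SMARCB1 libraries. Its mean was 5.06 ± 1.05% (SD, n = 2) against 0.336 ± 0.282% (SD, n = 2), 15.1 times as much. The ratio rests on a small GFP mean: it was 37.1 without GFP replicate 1, 9.4 without GFP replicate 2 and 42.9 with the strongest 40000 peaks of each list. HOXA stood at 36.6 and 34.1% with SMARCB1, a mean 1.88 percentage points below GFP. HOXB stood at 48.5 and 46.9%, 4.13 points above. HOXC stood at 62.3 and 59.0%, 4.64 points below. In percentage points the differences of HOXB and HOXC were thus about as large as that of HOXD, 4.72 points. Among stretches of the genome of the same length, 7.59% had a difference at least as high as HOXD's and 8.55% at least as high as HOXB's. For HOXA and HOXC, whose coverage was lower with SMARCB1, 96.6 and 98.2% did. The GFP and SMARCB1 libraries did not overlap in any of the 4 windows, and each exact permutation p was 0.333, the smallest that this design allows, also after adjustment over the 4 clusters.

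**Figure D2:**
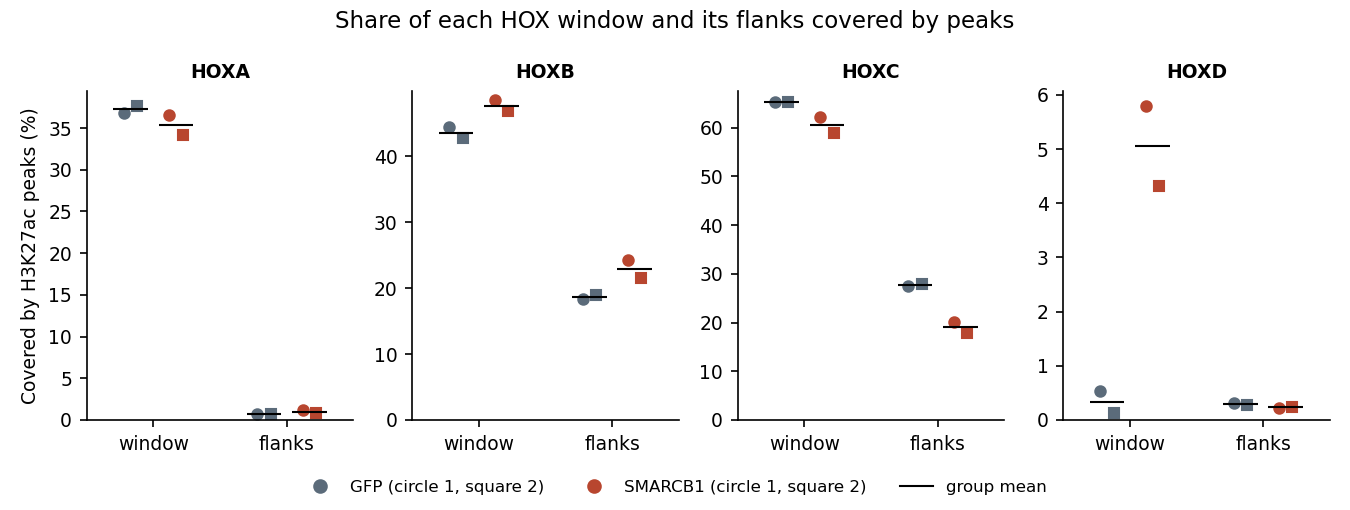
Percent of each HOX window and of its 300-kb flanks covered by H3K27ac peaks, with 1 point per library, a line at the mean of each group of 2, and a separate axis from 0 for each cluster. HOXD has a mean of 0.336% with GFP and 5.06% with SMARCB1 while its flanks lie between 0.227 and 0.308%.

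The HOXD change was set against each other cluster as a log2 ratio of covered shares within a library. HOXD over HOXA went from -7.11 ± 1.42 (SD, n = 2) with GFP to -2.82 ± 0.230 (SD, n = 2) with SMARCB1, a difference of 4.29 on the log2 scale. The differences for HOXD over HOXB and HOXD over HOXC were 4.08 and 4.32. Among HOXA, HOXB and HOXC the 3 differences were 0.21, -0.03 and -0.24. In all 6 pairs the groups did not overlap, with an exact permutation p of 0.333 before and after adjustment over the 6 pairs. The differences that involve HOXD share that cluster's libraries and are not independent of each other.

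HOXD, whose high-numbered members pattern the digits and the genital tubercle and whose low-numbered members act in the hindbrain and trunk, gained separate islands of H3K27ac rather than a continuous domain. Covered length was 0.86 and 0.22 kb in the GFP libraries and 9.28 and 6.91 kb in the SMARCB1 libraries. The peaks lay within a stretch of 28.7 kb, chr2:176986942-177015656, and the rest of the 160-kb window had none in any library. Overlapping peaks of the 4 lists were merged into regions, and a region with peaks of both SMARCB1 lists and of neither GFP list was called gained, and one with the reverse pattern was called lost. HOXD had 10 merged regions, of which 4 were gained, 1 was in all 4 libraries, 5 were in 1 library and none was lost. Over the genome 17.5% of 167933 merged regions were gained and 3.94% were lost, so that 4 of 10 lies above the genome's share. GFP peaks lay in only 1 of the 10 regions, the one in all 4 libraries. The others could thus only be gained or in 1 SMARCB1 library, and the share largely restates that HOXD was nearly bare with GFP.

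The strongest gained HOXD region was chr2:176986942-176988382. Peaks covered 1441 and 1189 bp of it in the SMARCB1 libraries, with a deposited fold enrichment of 8.10 and 9.23 and summits of 50 and 45 fragments placed 23 bp apart. No GFP peak lay closer than 12376 bp. The longest gained region, chr2:176993017-176995902, was covered over 2843 and 2344 bp, with fold enrichments of 7.36 and 5.80. It was 1 peak in SMARCB1 replicate 1 and 4 peaks in replicate 2. Their highest summits, with 47 and 29 fragments, were 109 bp apart. A gained region has peaks in both SMARCB1 libraries by definition, and in both of these islands the highest summits also lay close together.

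Both remaining gained regions were weaker. The region chr2:177011802-177012908 was covered over 835 and 601 bp with fold enrichments of 3.89 and 3.48, and chr2:177015177-177015656 over 275 and 228 bp with 2.88 and 2.36. Their summits had 22 and 16, and 16 and 17 fragments, beside the lowest of 13 and 11 in these lists at the genome-wide background. Both were absent when each list was reduced to its strongest 79555 peaks, the length of the shortest list, which left 2 gained regions in HOXD.

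One HOXD region was acetylated in every library and was the source of all 4 GFP peaks in the window. In chr2:176999650-177002289 peaks covered 857 and 218 bp in the GFP libraries and 2640 and 2344 bp in the SMARCB1 libraries. Its highest fold enrichment was 7.90 and 3.67 with GFP and 11.6 and 10.03 with SMARCB1. All 4 GFP peaks lay inside the SMARCB1 peaks. The highest summits of GFP replicates 1 and 2 were 43 and 16 bp from that of SMARCB1 replicate 1. The highest summit of SMARCB1 replicate 2 lay elsewhere in the region, 547 bp from that of replicate 1 and 590 and 531 bp from those of the GFP libraries, and 9 bp from the summit of another peak of GFP replicate 1. The gained islands lay on both sides of this small GFP site.

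**Figure D3:**
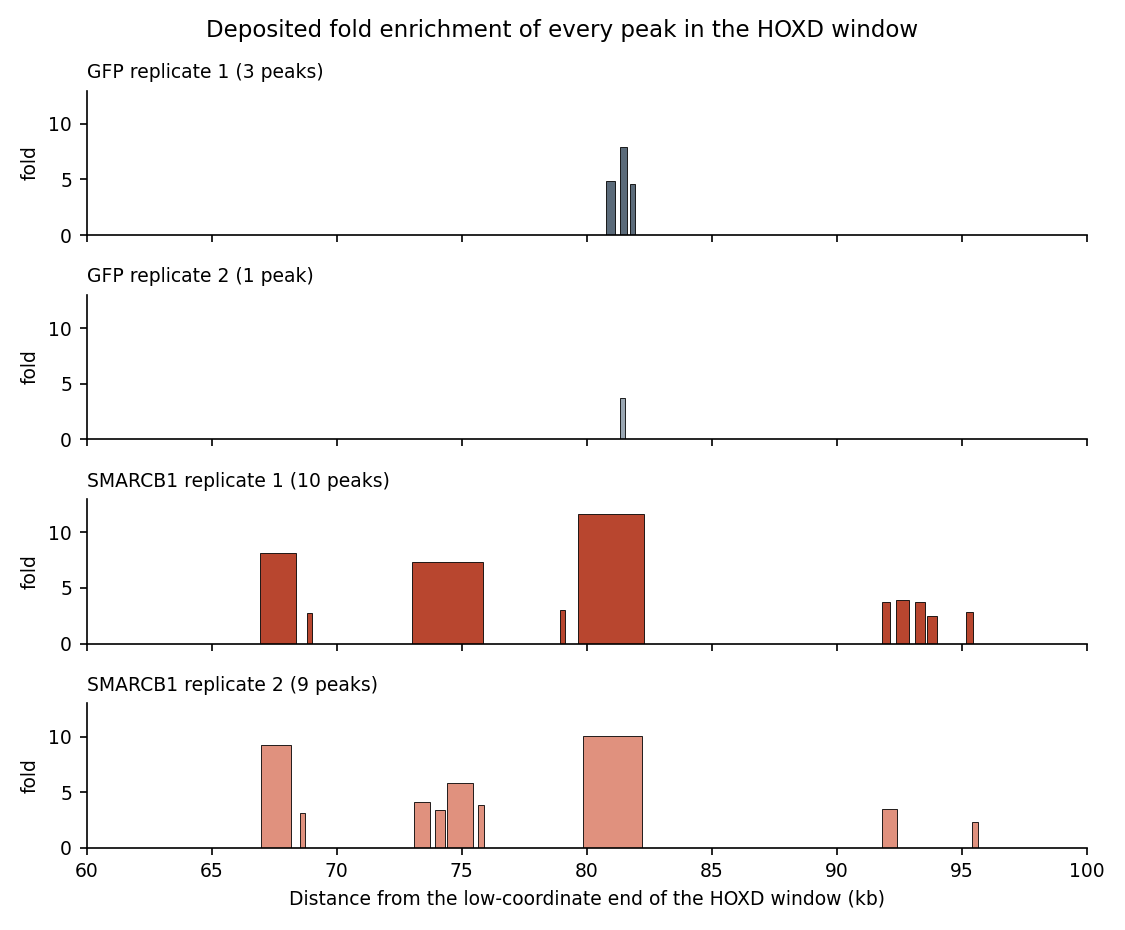
Fold enrichment deposited by the authors (y axis, each list against its own background) of every peak in the HOXD window, drawn at the peak's width along the distance in kb from the window's low end, 1 panel per library. GFP peaks are confined to 1 site, and the SMARCB1 libraries add islands to its left and right, with folds up to 11.6 and 10.03 at the shared site.

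**Figure D4:**
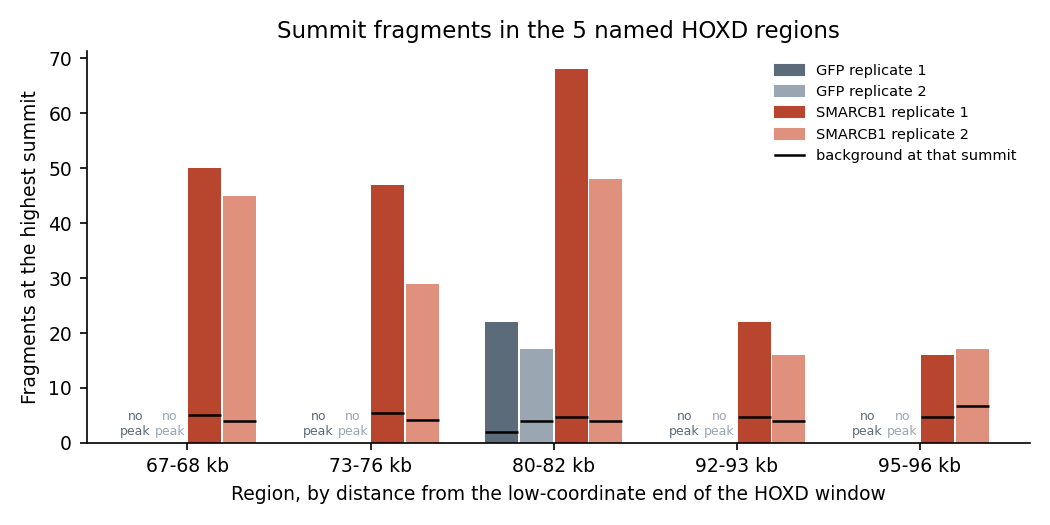
Fragments at the highest summit of each of the 5 named HOXD regions in each library (bars, before any scaling) and the background at that summit (black lines). The shared site has 22 and 17 fragments with GFP and 68 and 48 with SMARCB1, and the 4 other regions have no GFP peak.

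The flanks of HOXD did not follow the cluster. They were covered over 0.308 and 0.282% in the GFP libraries and 0.227 and 0.236% in the SMARCB1 libraries, with 3 regions, none of them gained or lost. The log2 ratio of the window's share to its flanks' share was 0.80 and -1.05 with GFP and 4.67 and 4.19 with SMARCB1, a difference of 4.56. The window stayed more covered with SMARCB1 in lists of equal length, by 4.06 percentage points with the strongest 79555 peaks and by 3.51 with the strongest 40000.

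Covered length was also tested across the genome in 10-kb windows, with limma on log2 of covered base pairs plus 200. Of 37964 windows with a mean of at least 200 covered bp, 30.6% were higher with SMARCB1 and 8.26% were lower at an adjusted p of 0.05. Of 78 windows in the HOX clusters 47 were tested, and 6 were higher (12.8%) and 5 lower (10.6%). Another 29 had no peak in any library, and 14 were covered over at least 9 kb in all 4 libraries, where little room for a rise remained. The difference between these shares and the genome's was not tested. The split depended on scaling. After centring each library on its median, which moved the median log2 difference of all windows from 0.36 to -0.31, 5 HOX windows were higher (10.6%, against 28.9% of the genome's) and 32 lower (68.1%, against 35.6%). After quantile normalization 5 were higher (10.6%, against 21.1%) and 11 lower (23.4%, against 24.9%). Without GFP replicate 2 none was higher, against 2.04% of the genome's windows, and 2 were lower (4.26%, against 3.45%). Without each of the other libraries 4 were higher (8.51%, against 11.8 to 24.2%) and 1 or 2 lower.

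Of the 6 higher windows 3 were in HOXD, which had 4 tested windows. At chr2:176980001-176990000 the libraries had 0, 0, 1641 and 1395 covered bp (limma adjusted p = 0.00327), and at chr2:176990001-177000000 they had 0, 0, 3402 and 2494 (limma adjusted p = 0.00292). The window chr2:177010001-177020000 had 0, 0, 1947 and 829 covered bp (limma adjusted p = 0.0181). Neither GFP library had a peak in these 3 windows. They passed the filter on mean covered length through the SMARCB1 libraries alone and could only come out higher. The other 12 HOXD windows had no peak in any library and were not tested. The 3 of 4 thus largely restates that HOXD was nearly bare with GFP. The window with the shared site, chr2:177000001-177010000, had 857, 218, 2289 and 2194 covered bp and missed the threshold (limma adjusted p = 0.0702, or 0.0306 with the replicate number as a block). In lists of equal length chr2:177010001-177020000 was no longer called (log2 difference 1.43, limma adjusted p = 0.397), and HOXD had 2 higher windows, as it had at -log10 q of at least 5. HOXD had 3 or 4 higher windows after either scaling and 3 without either SMARCB1 library, but 1 without GFP replicate 1 and 0 without GFP replicate 2 (limma adjusted p of at least 0.0523).

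**Figure D5:**
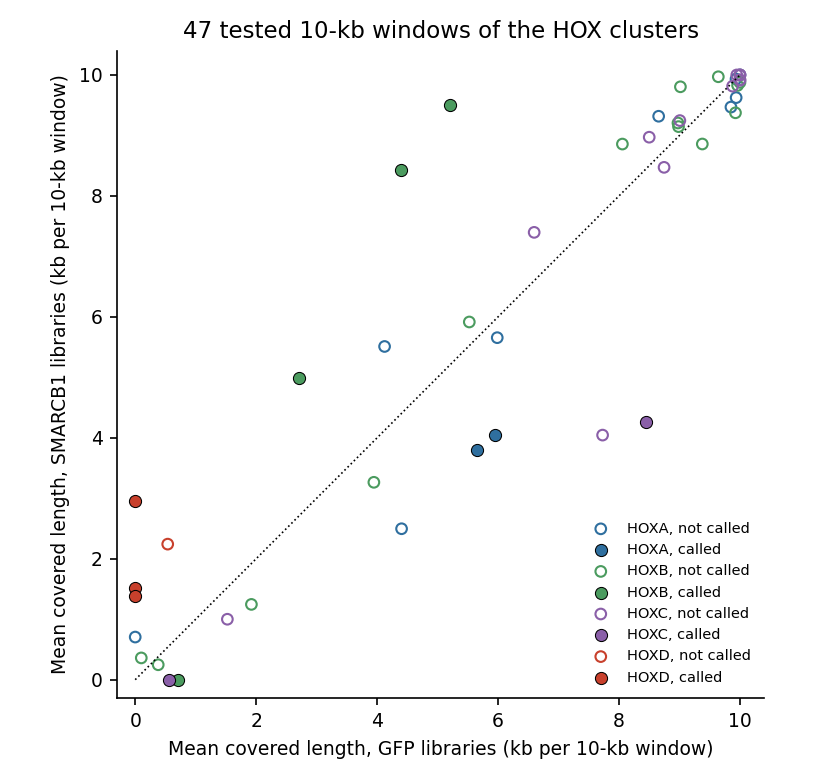
Mean covered length of the 47 tested 10-kb windows in the GFP libraries (x axis, kb) and the SMARCB1 libraries (y axis, kb), coloured by cluster, with windows past a limma adjusted p of 0.05 filled and a dotted line of equality. HOXD windows sit at or near 0 on the GFP axis, 3 HOXB windows lie well above the line, and most HOXA and HOXC windows lie close to it.

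HOXB holds HOXB4, a regulator of blood stem cells, and, apart from the rest, HOXB13, a posterior gene of the prostate and tail. With SMARCB1 peaks covered somewhat more of its window and were wider at the median. Of 18 tested HOXB windows 3 were higher and 1 was lower, beside 30.6 and 8.26% of the genome's windows. The share of higher ones was thus below the genome's, and the difference was not tested. Peaks numbered 56 and 41 with GFP and 37 and 51 with SMARCB1, and these overlapped, while median peak width was 559 and 664 bp against 1125 and 780 bp. Its longest region, chr17:46617820-46680083, was covered over 57805, 57508, 60314 and 58032 bp in the 4 libraries, nearly the same in all. The rise lay next to it. At chr17:46680001-46690000 GFP libraries had 4886 and 3911 covered bp and SMARCB1 libraries 8480 and 8391, a log2 difference of 0.92 (limma adjusted p = 0.0146).

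The next windows rose likewise. At chr17:46690001-46700000 covered length was 6035 and 4366 bp against 9600 and 9406 bp, a log2 difference of 0.86 (limma adjusted p = 0.0337). At chr17:46700001-46710000 it was 3064 and 2339 bp against 4901 and 5072 bp, a log2 difference of 0.85 (limma adjusted p = 0.0331). With peaks joined within 5 kb, the run that ends in the last of these 3 windows was 91.0 and 90.3 kb long in the SMARCB1 libraries. In GFP replicate 2 it was broken, within the first of the 3 windows only, into runs of 67.3 and 18.4 kb. In GFP replicate 1 it was unbroken and 98.1 kb long, but covered over 75.4%, against 92.9 and 90.7% with SMARCB1. None of the 3 windows passed after centring on the library median, where their log2 differences were 0.18 to 0.25. The third also missed the threshold after quantile normalization (log2 difference 0.49, limma adjusted p = 0.088), and the second without the trend (limma adjusted p = 0.0619). None of the 3 passed without GFP replicate 2, or without either SMARCB1 library.

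HOXB also had small losses. At chr17:46720001-46730000 the libraries had 906, 518, 0 and 0 covered bp (limma adjusted p = 0.0169). With no SMARCB1 peak in it, the window could only come out lower. It was not called without either SMARCB1 library, and was not among the tested windows at -log10 q of at least 5. Part of the length in GFP replicate 1 was in peaks absent from GFP replicate 2. The lost region in this window, chr17:46724542-46725059, had GFP fold enrichments of 5.31 and 3.23, with 19469 bp to the closest SMARCB1 peak. The second lost region, chr17:46612543-46613640, was covered over 998 and 689 bp with GFP, with fold enrichments of 4.96 and 4.86, and lay 368 bp from a SMARCB1 peak. HOXB had 31 merged regions, of which 11 were in all 4 libraries. None was gained, against 17.5% of the genome's regions, and 2 were lost (6.45%, against 3.94%).

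The low-coordinate flank of HOXB differed more than the cluster did. It was covered over 5.28 and 4.34% with GFP and 15.4 and 12.7% with SMARCB1, whereas the high-coordinate flank had 31.4 and 33.7% against 33.0 and 30.2%. The flanks together held 170 merged regions. Of these 23 were gained (13.5%, against 17.5% of the genome's regions) and 14 lost (8.24%, against 3.94%). The log2 ratio of the window to both flanks was 1.27 and 1.17 with GFP and 1.0 and 1.13 with SMARCB1. Its difference of -0.16 became 0.23 with flanks of 100 kb, so its direction depended on the length of flank.

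HOXA, which holds HOXA9 and HOXA10, regulators of blood progenitors and of the reproductive tract, kept its 2 long acetylated blocks and had lower coverage in 2 windows, 1 between them and 1 at the domain's edge. Its longest region, chr7:27185944-27226161, had 39284 and 39418 bp under peaks with GFP and, with SMARCB1, 37802 and 36817. With peaks joined within 5 kb, GFP replicate 1 had a single run of 92.4 kb and GFP replicate 2 had runs of 47.2 and 39.9 kb. SMARCB1 replicate 1 had runs of 30.1 and 56.0 kb, open from 27164205 to 27169398, and replicate 2 had runs of 29.5 and 56.0 kb, open from 27163511 to 27169492. The number of peaks was 27 and 25 with GFP and 37 and 38 with SMARCB1 (exact permutation p = 0.333). In the full lists slightly less length was thus split among more peaks, with a mean difference of 11.5 peaks. In lists of equal length the means were 23.0 with GFP and 24.5 with SMARCB1, a difference of only 1.5. It was 4.0 with the strongest 40000 peaks and 7.5 at -log10 q of at least 5.

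Of 11 tested HOXA windows 2 were lower and none was higher, beside 8.26 and 30.6% of the genome's windows. With 11 windows the share of lower ones is too coarse to set apart from the genome's, and no test was made. At chr7:27220001-27230000, the high-coordinate edge of the domain, covered length was 5873 and 6019 bp with GFP and, with SMARCB1, 4400 and 3682, a log2 difference of -0.54 (limma adjusted p = 0.0377). The other, chr7:27160001-27170000, falls outside the naming rule and is given because it holds both lost HOXA regions, which was seen afterwards. It had 5433 and 5881 bp against 4125 and 3464 bp, a log2 difference of -0.56 (limma adjusted p = 0.0415). Neither of these windows passed without either GFP library or without limma's trend. The second also missed the threshold without either SMARCB1 library, in lists of equal length and at -log10 q of at least 5, 7 of its 13 alternatives in all. The neighbouring window chr7:27170001-27180000 had 3995 and 4814 bp against 2836 and 2156 bp and missed the threshold (limma adjusted p = 0.0588). The next, chr7:27180001-27190000, also between the blocks, went the other way, with 4520 and 3727 bp against 6448 and 4572 bp, and was not called (log2 difference 0.39, limma adjusted p = 0.25).

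The lost HOXA regions were short. The region chr7:27165309-27165917 was covered over 231 and 609 bp with GFP, with fold enrichments of 3.85 and 3.6, and chr7:27164596-27164881 over 235 and 229 bp, with 3.52 and 2.59. SMARCB1 peaks ended 1103 and 390 bp from them. The single gained region, chr7:27120726-27121337, was covered over 612 and 226 bp with SMARCB1, with fold enrichments of 2.20 and 2.81, and lay 12421 bp from the nearest GFP peak. It was not found in lists of the strongest 79555 peaks, and neither was the lost region chr7:27164596-27164881. At -log10 q of at least 5 and with the strongest 40000 peaks none of these 3 regions kept its class, and both lost regions had none with peaks joined within 1 kb. HOXA had 27 merged regions in all, 6 of them in all 4 libraries. Gained ones were 3.70% of the 27, against 17.5% of the genome's regions, and lost ones 7.41%, against 3.94%.

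Around HOXA the chromatin was almost empty of peaks. The flanks were covered over 0.764 and 0.701% with GFP and 1.14 and 0.846% with SMARCB1. On the high-coordinate side neither GFP library had a peak in 300 kb, and the SMARCB1 libraries had 2 and 1. The log2 ratio of the window to its flanks was 5.59 and 5.75 with GFP and 5.005 and 5.33 with SMARCB1, far above that of HOXB and HOXC. HOXA thus stood as a sharply bounded island, as HOXD did at a lower level in the SMARCB1 libraries.

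HOXC holds HOXC13, a gene of hair and nail, and HOXC8 and HOXC9, which act in the thoracic region. It was the most acetylated cluster in every library and was less covered near its high-coordinate end with SMARCB1. The high-coordinate end is that of the low-numbered members HOXC4, HOXC5 and HOXC6. Peaks joined within 5 kb formed a single run of 127.4 and 125.7 kb with GFP and of 119.2 and 118.5 kb with SMARCB1. The run began between 54328130 and 54329018 in all libraries, and ended at 54455779 and 54453775 with GFP and at 54448218 and 54447522 with SMARCB1. The last peaks of the GFP runs were each in 1 library only, with fold enrichments of 4.25 and 3.59. The GFP ends thus rest on weak peaks that the 2 GFP libraries did not share. The core of the run, chr12:54378887-54426453, was covered over 47425, 47442, 47521 and 47167 bp, that is, almost throughout in each library.

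Of 14 tested HOXC windows 2 were lower and none was higher, beside 8.26 and 30.6% of the genome's windows. Both called windows were near the high-coordinate end. At chr12:54430001-54440000 covered length was 8044 and 8845 bp with GFP and, with SMARCB1, 4543 and 3989, a log2 difference of -0.95 (limma adjusted p = 0.00816). At chr12:54450001-54460000 the libraries had 466, 661, 0 and 0 covered bp (limma adjusted p = 0.0148). The window between them, chr12:54440001-54450000, had 7912 and 7545 bp against 5342 and 2747 bp and did not pass (limma adjusted p = 0.114, or 0.0386 with the replicate number as a block). The first of these windows lost its call when any of the 4 libraries was left out (limma adjusted p of 0.0633 to 0.0840). The second, chr12:54450001-54460000, lost it without either SMARCB1 library, and was not among the tested windows at -log10 q of at least 5. With no SMARCB1 peak in it, this window could only come out lower. The GFP libraries shared no site there: each peak was in 1 library only, with fold enrichments of 3.17 to 4.25.

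Of 24 merged HOXC regions 11 were in all 4 libraries. None was gained, against 17.5% of the genome's regions, and 2 were lost (8.33%, against 3.94%). The lost region chr12:54443370-54443919 was covered over 426 and 248 bp with GFP, with fold enrichments of 4.22 and 3.59, and a SMARCB1 peak lay 47 bp away. The other, chr12:54328130-54328725, was covered over 335 and 478 bp, with 4.34 and 2.95, and lay 259 bp from a SMARCB1 peak. Both thus lay close beside sites that stayed acetylated.

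The flanks of HOXC were lower with SMARCB1, as the cluster was, and by more. They were covered over 27.4 and 27.9% with GFP and 20.1 and 18.0% with SMARCB1, and held 134 merged regions. Of these 4 were gained (2.99%, against 17.5% of the genome's regions) and 18 lost (13.4%, against 3.94%). The low-coordinate flank went from 15.001 and 15.3% to 7.81 and 6.74%. The log2 ratio of the window to its flanks was 1.25 and 1.23 with GFP and 1.63 and 1.72 with SMARCB1, a difference of 0.44. It was -0.89 with flanks of 100 kb and -0.48 against the share of the whole genome, so that its direction depended on what the window was set against.

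Over the 4 clusters 92 merged regions were found: 29 in all 4 libraries, 5 gained (5.43%, against 17.5% of the genome's regions), 6 lost (6.52%, against 3.94%), 35 in 1 library and 17 in another combination. All but 1 of the gained regions were in HOXD, and all of the lost ones were in the other 3 clusters. HOXD had GFP peaks in only 1 region, so almost nothing in it could be lost. In the other 3 clusters most covered length lay in long merged regions of all 4 libraries. A rise or fall within these could not count as gained or lost. In HOXB chr17:46680205-46682243 went from 307 and 0 bp with GFP to 1928 and 1906 bp with SMARCB1 and was not gained by this rule. Peaks of at least 10 kb numbered 8, 8, 8 and 7 in the 4 libraries, that is 6.50, 7.55, 7.14 and 5.0% of the peaks in the clusters, against 0.690, 0.901, 0.424 and 0.258% over the genome. None of these wide peaks was in HOXD, where the widest peak was 389 and 218 bp with GFP and, with SMARCB1, 2843 and 2344.

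The stitched-region tables deposited by the authors, made from peaks away from transcription starts, held regions in 3 of the clusters in every library. HOXA had 11, 10, 9 and 6 stitched regions, HOXB 41, 35, 29 and 40, and HOXC 30, 28, 22 and 33. HOXD had 0, 0, 1 and 1. Most of these were single peaks that had not been joined: the HOXA regions of GFP replicate 1 held 11 peaks, and the HOXC regions held 30, 28, 22 and 33. None of the regions carried the authors' super-enhancer mark, in any of the 4 tables, while 3.37, 3.35, 5.55 and 5.02% of all their regions did. The mark follows from the ranked signal. Regions with the same ID shared 1 signal value, so the signal and the rank were not used as measurements, and the lack of a mark says little about these clusters: a HOXC peak of 47.4 kb ranked 16786 of 19377 regions in GFP replicate 2.

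Most HOXD and HOXA peaks were in no stitched region. In HOXD these were 3 of 3, 1 of 1, 8 of 10 and 8 of 9 peaks, and in HOXA 16 of 27, 15 of 25, 20 of 37 and 25 of 38, against 20.3, 22.7, 13.5 and 14.98% over the genome. In HOXB they were 17.9, 9.76, 16.2 and 15.7%, and in HOXC 18.9, 28.2, 21.4 and 21.4%. The 2 strongest gained HOXD regions and the shared site were among the peaks left out of these tables, and chr2:177011802-177012908 was the single one of the named HOXD regions in them.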

How the data were processed

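H3K27ac ChIP-seq peak lists of 4 libraries (GFP and SMARCB1, replicates 1 and 2) were grouped from the labels, by induced gene and antibody. Reads were aligned to hg19, and BWA 0.7.12-r1039 is named, per the submitters' processing notes. Peaks were called with MACS2 on each library separately and filtered, per the deposited file names, and the caller's version and the filter's rule are not given in the sources used here. Each deposited fold is a ratio, the summit height over what the caller took as background. Its deposited -log10 p and -log10 q are the authors' values, as is the deposited score, which was not used. These values served to describe, order or filter the peaks of 1 list, and to recover summit fragments and background, which stand in for depth, within a tolerance of 0.001 on -log10 p (100% of peaks recovered).

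The stitched-region tables come from ROSE with a stitching distance of 12.5 kb, per the file headers. The deposited signal was left out, since an ID given to several regions carried 1 value, and 4 other columns of per-sample values, whose names fit none of the samples, were left out too. Each table was given to the library named in it, and 100% of its region starts and ends were in that library's peak list.

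Covered length is the union of peaks in a stretch, and overlap was counted from 1 bp. Group means of single values were compared by two-sided exact permutation of the libraries. Windows of 10 kb were fitted with limma 3.58.1 (lmFit, eBayes with trend) in R 4.3.3 over the genome, with Benjamini-Hochberg adjustment. Windows were simulated with the same SD for all of them, 0.163, taken from the difference between the GFP libraries. Spread differed among the measured windows, so recovery there may be lower. On the simulated windows the fit recovered 100% of those changed by 2 and by 4 on the log2 scale. It called 6 unchanged ones among 37964. The share of false calls among the measured windows was not tested. Precision is limited by the number of libraries, and read totals were not used.

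Named regions were, per cluster, the one with the largest mean covered length and the gained and lost ones, and the 10 called windows with the smallest p. The members and lists were chosen with earlier results of these data known. Alternatives were stricter and equal-length lists, other windows, pseudocounts, filters, flanks and scalings, the replicate number as a block, and leaving out each library. Joining peaks at 2 and 10 kb was added after the data had been seen. Replicate numbers name no shared culture, and deviations of same-numbered libraries correlated at r = 0.14 across 37964 windows, which are not independent. Sequences are RefSeq's, of GRCh38.p14. Scripts ran in Python 3.11.15 with scipy 1.17.1, pandas 2.3.3, numpy 2.4.6 and matplotlib 3.10.9.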

Additional observations from a re-analysis of the deposited data

How the results depend on the processing

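The direction of the covered share held in all 4 clusters under the stricter and equal-length lists and without each library in turn. Leaving out 1 library gave differences of -3.10 to -0.67 percentage points in HOXA, 3.30 to 4.97 in HOXB, -6.30 to -2.99 in HOXC and 3.98 to 5.46 in HOXD. The number of peaks reversed in HOXB (-12.0 to 3.0) and HOXC (-10.0 to 4.0), as did the number of stitched regions (-16.5 to 2.5). The log2 ratio to the flanks ranged from -0.67 to -0.34 in HOXA, -0.22 to -0.09 in HOXB, 0.40 to 0.48 in HOXC and 3.64 to 5.48 in HOXD. With 100-kb flanks it reversed to 0.23 in HOXB and -0.89 in HOXC, and against the genome to -0.48 in HOXC. It had no value in HOXA with 100-kb flanks, or in HOXD at -log10 q of at least 5 and with the strongest 40000 peaks, where a share was 0.

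Gained regions in the clusters, 5 with all peaks, were 3 at -log10 q of at least 5, 2 in lists of equal length, 3 with the strongest 40000 peaks and 29 with a reciprocal overlap of 50%. Leaving out 1 library gave 6 to 20, and 4 to 9 in HOXD. Lost regions, 6 with all peaks, were 3 at -log10 q of at least 5, 22 with a reciprocal overlap and 2 with peaks joined within 1 kb, and 7 to 20 without 1 library. A class of fewer libraries asks less of each region.

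Higher windows, 6 with all libraries, were 0 to 4 when 1 was left out (0 without GFP replicate 2), and lower ones, 5, were 1 to 2. A lone library was then assumed to vary like the other group. Lower windows were 32 after centring, 11 after quantile normalization, 3 in 20-kb windows, 2 at -log10 q of at least 5 and 3 without the trend. The cause was not tested. With the replicate number as a block 7 windows were higher and 6 lower. Within same-numbered pairs the covered share differed by -0.27 and -3.50 points in HOXA, 4.10 and 4.16 in HOXB, -2.98 and -6.31 in HOXC and 5.26 and 4.18 in HOXD (exact sign-flip permutation p = 0.5, the smallest 2 pairs allow). The block changed no call beyond those given for HOXC and HOXD windows.

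The mean longest run with peaks joined within 2, 5 and 10 kb was 42.8, 62.9 and 91.8 kb in HOXA, 76.3, 86.7 and 96.5 kb in HOXB, 107.5, 122.7 and 122.7 kb in HOXC and 1.95, 7.98 and 14.6 kb in HOXD. Summits under 7 to 13 fragments could not be called at these depths, so a HOXD site without a GFP peak may hold less acetylation than that, not none.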
